A study of Mus musculus with 8 samples.

Results

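The genes described here are 35 components of the glutathione, thioredoxin and related antioxidant enzyme systems, taken by exact gene name from a deposited table of 21959 genes. They were measured by sequencing polyadenylated RNA in 8 mouse libraries labelled as brain, wild type. Of these, 4 are labelled Model and treated with PCPA (para-chlorophenylalanine, which depletes serotonin by blocking tryptophan hydroxylase), and 4 are labelled IsoL and treated with isoliensinine, an alkaloid of the lotus. The study asked how isoliensinine acts on sleep. Its design text describes female ICR mice, dosing for 7 days, isoliensinine at 12.5, 25 or 50 mg/kg, a pentobarbital injection after the last dose and dissection of the hypothalamus. Neither the dose that was sequenced nor whether the IsoL mice had also received PCPA is stated in the labels, and no age is given. No untreated group was analysed here, so each difference is that of IsoL from Model. Nothing in the labels says that the libraries of a group are from separate mice, and p-values then reflect no more than the spread among these libraries, which may be technical.

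Cells remove superoxide and peroxides through linked enzyme systems. Superoxide dismutases turn superoxide into hydrogen peroxide, which catalase, glutathione peroxidases and peroxiredoxins reduce to water. The peroxidases draw their electrons from glutathione or thioredoxin, which are in turn reduced by glutathione reductase and thioredoxin reductases at the expense of NADPH. Nrf2, encoded by Nfe2l2, is the transcription factor that induces many of these genes under oxidative or electrophilic stress, and Keap1 holds it in check by marking it for degradation. In brain, glutathione is made at high rates by astrocytes, which supply its precursors to neurons.

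The Model libraries held 14262836 to 15886850 counts each and the IsoL libraries 15731923 to 21620466, and a floor of 3 counts was 0.139 to 0.210 CPM (counts per total library size, adjusted by TMM factors), which covers counting error only. A set of 4 Y-linked genes was read in all 8 libraries, at a summed 301 to 354 CPM, which goes against the female sex in the design text. Hypothalamic markers such as Hcrt and Pmch were present in each library, as were markers of cortex, thalamus, glia and vessels. Model 2 stood apart from the other Model libraries, the chi-square of its count differences to them being 10.9 to 12.4 times the degrees of freedom, against 2.52 to 7.48 among the others, and it had the highest share of mitochondrially encoded counts (5.64%, against 4.69 to 5.11% in the other libraries). Values below are CPM in replicates 1 to 4 of a group, or mean ± SD over n = 4 libraries, unless FPKM (counts scaled by gene length and library total, as deposited) is named.

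None of the antioxidant genes differed between IsoL and Model past the threshold in the main test. Of the 34 members with enough counts to be tested, 0 passed a Benjamini-Hochberg adjusted p of 0.05 in edgeR's quasi-likelihood test, where 40 of all 14536 tested genes (0.275%) did. The smallest p-values belonged to the glutathione peroxidase genes Gpx3 and Gpx4, whose levels were below Model in every IsoL library, and to the catalase gene Cat and the glutathione transferase gene Gstm1, whose levels were above it. At an unadjusted p under 0.05 there were 4 members, these same genes, or 11.8% of those tested, against 13.2% of all genes. Limma voom also called 0 members, where it called 1.64% of all genes, and 5 members were at an unadjusted p under 0.05 in it (16.4% of all genes). DESeq2 called 2 members, Gpx3 and Cat, where it called 2.0% of all genes, and 4 members were at an unadjusted p under 0.05 (10.2% of all genes).

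**Figure D1:**
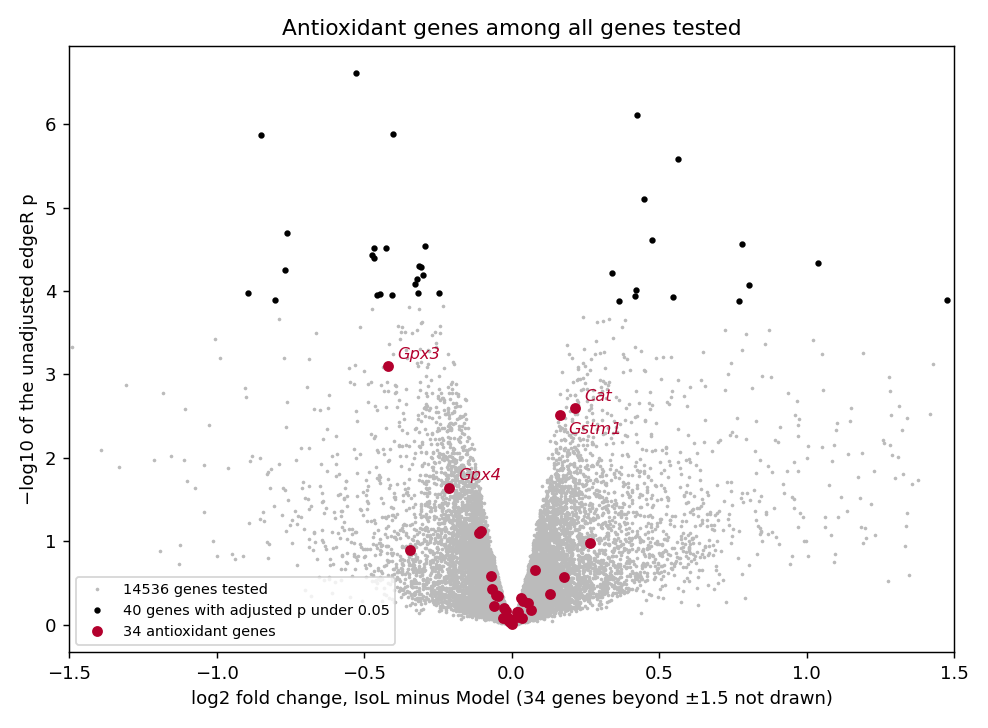
Each point is a gene, with its log2 fold change (IsoL minus Model) on the x axis and −log10 of its unadjusted edgeR p on the y axis; 34 genes beyond ±1.5 are not drawn. The 34 antioxidant genes (red) lie below the 40 genes with an adjusted p under 0.05 (black), and Gpx3, Cat, Gstm1 and Gpx4 are the members with the smallest p.

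Fitted differences were small across most of the module. The median log2 fold change of the 34 tested members was -0.0079, beside -0.0015 over all tested genes, with 15 members above 0 and 19 below. For 24 of the 34 the log2 fold change was within 0.1 of 0 (70.6%, against 54.4% of all tested genes). For 24 of the 34 the whole 95% interval lay within 0.32 of 0 on the log2 scale, against 8067 of all 14536 tested genes. All tested genes were not matched to the members by counts, so these shares do not show that the members were steadier than genes of like level. The summed level of all 35 genes was 2308 to 2530.2 CPM in Model and 2318 to 2423 CPM in IsoL, and the groups overlapped. Libraries of the groups did not overlap for 4 of the 34 (11.8%), against 8.48% of all tested genes, a share near the background. Of these, 2 were higher in IsoL (4.05% of all tested genes were) and 2 lower (4.42%).

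**Figure D2:**
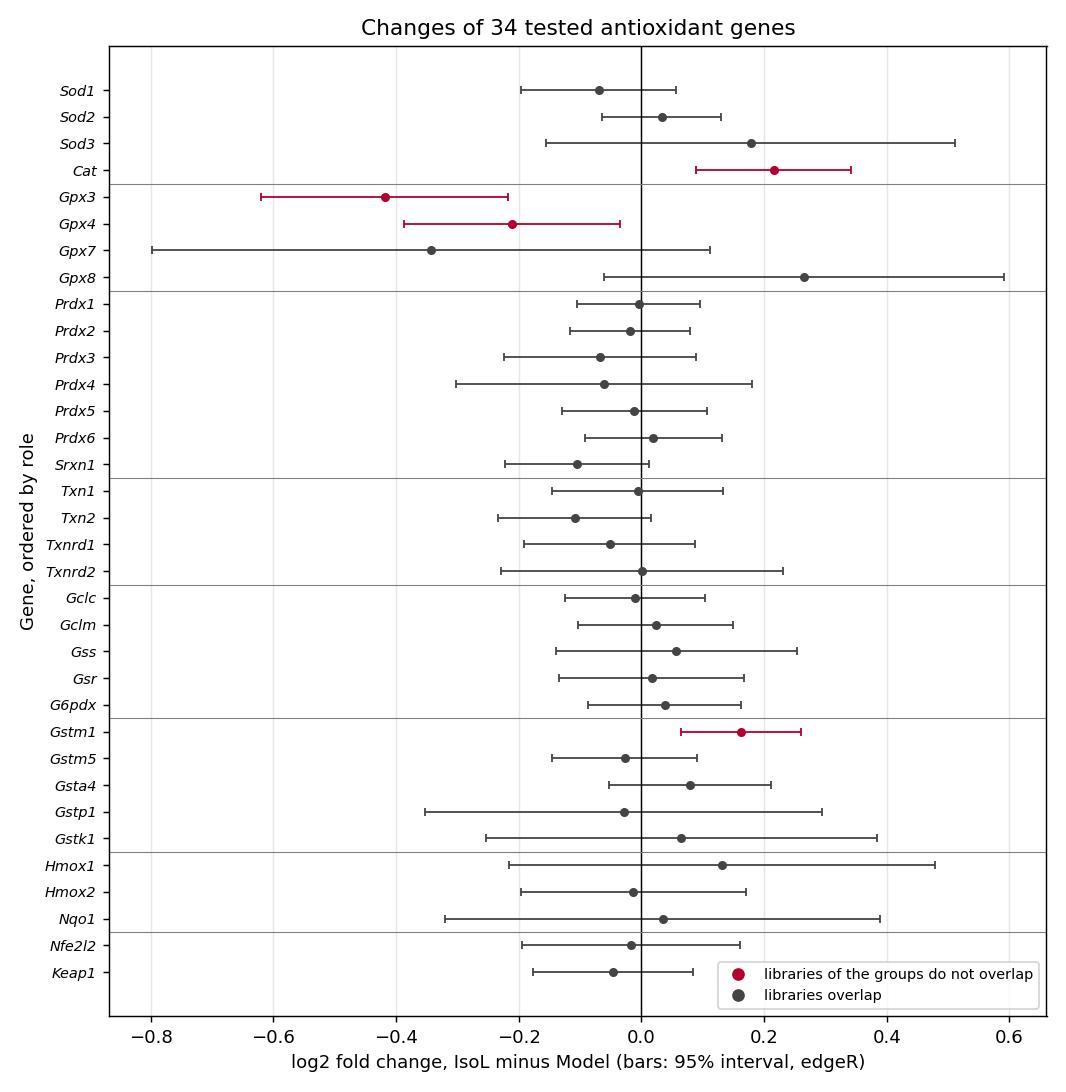
Log2 fold changes (IsoL minus Model, x axis) of the 34 tested antioxidant genes (y axis, grouped by role), with 95% intervals from edgeR. The intervals of Cat, Gpx3, Gpx4 and Gstm1, drawn in red because their libraries do not overlap between the groups, exclude 0, and the intervals of the other 30 include it.

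The glutathione peroxidases showed the widest differences of any role. Gpx3 (ENSMUSG00000018339, chromosome 11, 54793279 to 54801203 as deposited, build not given in the sources used here) encodes the secreted, selenium-dependent peroxidase. It was at 145, 141, 114 and 125 CPM in Model and at 82.9, 105, 106 and 98.1 CPM in IsoL. Every IsoL library lay below every Model library, and IsoL 1 was the lowest. The group means were 131 ± 14.2 and 98.1 ± 10.8 CPM (log2 fold change -0.42, SE 0.091, 95% interval -0.62 to -0.22, edgeR adjusted p = 0.0935). With a library left out the edgeR adjusted p ran from 0.0563 to 0.202, and it was 0.0723 in limma voom and 0.00161 in DESeq2. In bulk tissue, fewer cells that express a gene and less of its RNA per cell cannot be told apart.

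Markers of the hypothalamus were also lower in the IsoL libraries. The summed level of 17 regional genes was 319.5, 262, 307 and 325 CPM in Model and 124, 183, 232 and 194 CPM in IsoL. IsoL 1 was the lowest for both this sum and Gpx3. In Model the order of the libraries differed, with the sum lowest in Model 2 and Gpx3 lowest in Model 3. Of these 17 genes, 15 were below Model, as were 7334 of all 14536 tested genes. Only Pmch passed (0.275% of all tested genes did), and none was at 0 in all libraries. Markers of the choroid plexus, the epithelium that makes cerebrospinal fluid, were at a summed 75.1 to 77.9 CPM in Model and at 784, 685, 124 and 72.9 CPM in IsoL 1 to 4, with 6 of 7 tested markers above Model and none passing. Those of cortex and hippocampus were at a summed 253 to 296 CPM in Model and at 395, 396, 274 and 235 CPM in IsoL 1 to 4. Of 9 tested, 6 were above Model and none passed. A list of 7 dorsal midbrain genes was at a summed 11 to 22.5 CPM in Model and 31.1 to 59.4 CPM in IsoL. Of these, 3 of 7 passed the threshold (0.275% of all tested genes did). The list was chosen on earlier results of these libraries, so its values are no test of a regional difference. The part of the regional differences in the Gpx3 values was not tested.

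Gpx4 (ENSMUSG00000075706, chromosome 10, 79883000 to 79892273) encodes the peroxidase that reduces lipid hydroperoxides in membranes and protects cells from ferroptosis, and it had the highest level per gene length over all 8 libraries, at 89.7 ± 12.9 FPKM in Model and 77.7 ± 3.97 in IsoL. In CPM it was at 142, 186, 149 and 143 in Model and at 128, 129.7, 141 and 137 in IsoL. The IsoL libraries again lay below all Model libraries, but the margin between the lowest Model and the highest IsoL library was small, and Model 2 was far above the rest. The fitted difference was -0.21 in log2 units (SE 0.081, edgeR adjusted p = 0.290) and -0.11 without Model 2 (edgeR adjusted p = 0.282, against 0.241 to 0.521 over all left-out libraries). A GENCODE transcript named Gpx4-ps2 matches 733 bases of Gpx4 at 99.7% identity, so the value is uncertain where reads could be split.

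The endoplasmic reticulum peroxidases Gpx7 and Gpx8 were low and did not part the groups. Gpx7 was at 3.57, 4.44, 3.97 and 3.26 CPM in Model and 3.44, 2.67, 2.02 and 3.80 CPM in IsoL (log2 fold change -0.34, 95% interval -0.80 to 0.11, edgeR adjusted p = 0.515). Gpx8 was at 5.80, 6.95, 5.77 and 4.41 CPM in Model and 7.61, 6.55, 6.07 and 7.33 CPM in IsoL (log2 fold change 0.26, 95% interval -0.062 to 0.59, edgeR adjusted p = 0.481). Both ranges overlapped, and the fitted changes pointed in opposite directions. The log2 fold change of Gpx7 was -0.20 without IsoL 3, and that of Gpx8 was 0.16 without Model 4. Gpx1 encodes the main cytosolic selenium-dependent peroxidase. It was listed with 0 to 4 counts per library, 15 in all, and was not tested. It has no overlapping gene in the deposited table and no near-identical transcript of another gene in GENCODE M21. Gpx1 is known to be expressed in brain well above such counts, so its value here is uncertain and is not taken as its level of expression.

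**Figure D3:**
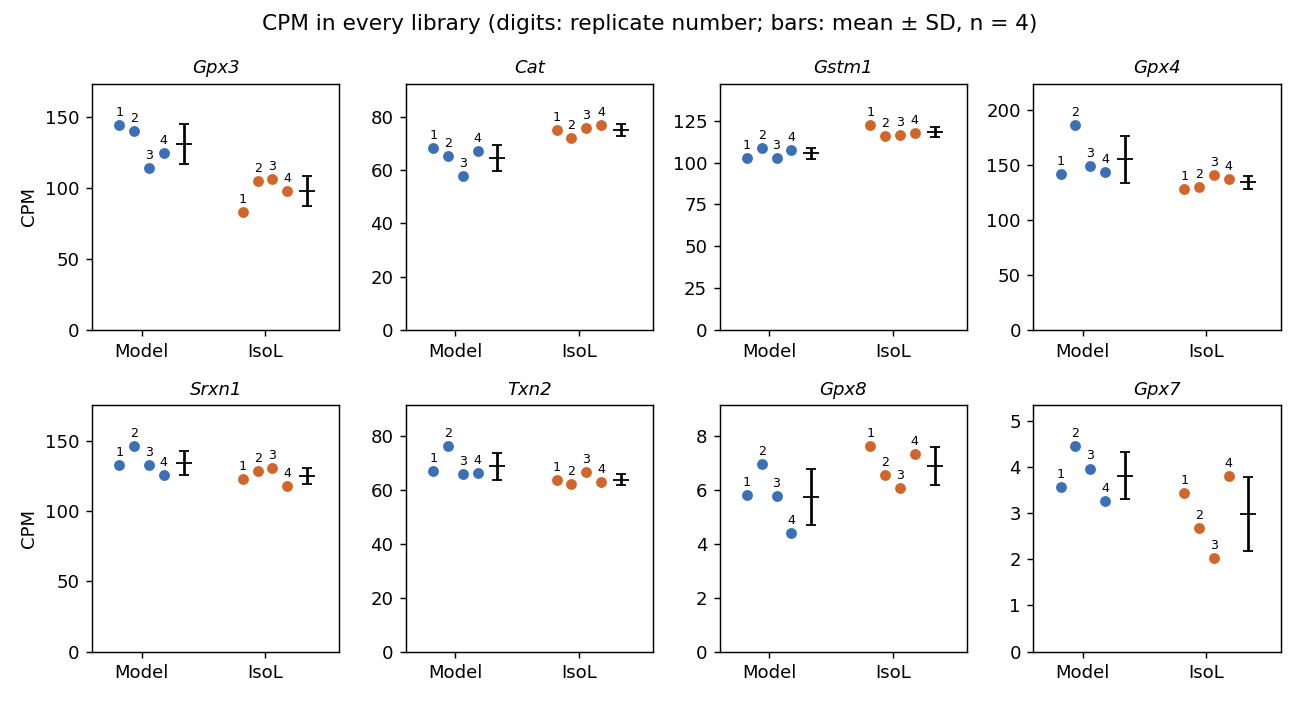
CPM (y axis, from 0) in each library for the 8 antioxidant genes with the smallest unadjusted p; digits give the replicate number and bars the mean ± SD of 4 libraries. The groups do not overlap for Gpx3, Cat, Gstm1 and Gpx4 and overlap for Srxn1, Txn2, Gpx8 and Gpx7, and Model 2 is the highest Model library in 6 of the 8 panels.

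Catalase, the peroxisomal enzyme that splits hydrogen peroxide, was the gene of its role whose groups did not overlap. Cat (ENSMUSG00000027187, chromosome 2, 103284194 to 103315505) was at 68.3, 65.3, 57.6 and 67 CPM in Model and at 75.2, 71.8, 75.8 and 77 CPM in IsoL. Every IsoL library was above every Model library, and Model 3 was the lowest. The means were 64.6 ± 4.79 and 75 ± 2.22 CPM (log2 fold change 0.22, SE 0.059, 95% interval 0.090 to 0.34, edgeR adjusted p = 0.133), and DESeq2 gave an adjusted p of 0.0496, limma voom 0.0603 and edgeR with a library left out 0.0843 to 0.295. Sod1, the copper and zinc dismutase of the cytosol and the most abundant gene of this role per gene length (32.2 FPKM over all libraries), was at 129, 145, 119 and 129.8 CPM in Model and 122, 120.4, 132 and 125 CPM in IsoL. Its groups overlapped (log2 fold change -0.070, 95% interval -0.20 to 0.057, edgeR adjusted p = 0.652). A pseudogene matches 72.5% of the Sod1 transcript at 95% identity or more, so its value is uncertain where reads could be split. Sod2, the manganese dismutase of mitochondria, was at 246 ± 10.2 and 252 ± 5.87 CPM, and its interval bounded any change tightly (-0.064 to 0.13 on the log2 scale). Sod3, the extracellular dismutase, was low and variable, at 9.07 ± 1.98 and 10.3 ± 1.33 CPM (log2 fold change 0.18, 95% interval -0.16 to 0.51). Without Model 1, its lowest library, the log2 fold change was 0.039.

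Among the glutathione transferases, which attach glutathione to electrophiles, Gstm1 was the member with the smallest p. Gstm1 (ENSMUSG00000058135, chromosome 3, 107919571 to 107925289), a mu-class enzyme found in astrocytes, was at 103, 109, 103 and 108 CPM in Model and at 123, 116, 117 and 118 CPM in IsoL. The groups did not overlap, and the spread within each was small. The means of 106 ± 3.25 and 118 ± 3.09 CPM gave log2 0.16 in the fit (SE 0.045, edgeR adjusted p = 0.142), and DESeq2 gave an adjusted p of 0.0506, limma voom 0.0639 and edgeR with a library left out 0.0598 to 0.334. A pseudogene matches 51.0% of the Gstm1 transcript at 95% identity or more, so its value carries the same uncertainty as that of Gpx4. Gstm5, Gsta4 and Gstk1 overlapped between the groups, with log2 fold changes of -0.027, 0.079 and 0.065. Gstp1, the pi-class enzyme, varied most of this role in Model, where it ran from 70.3 to 118 CPM against 80.5 to 96.6 in IsoL (log2 fold change -0.029, 95% interval -0.35 to 0.30). It is nearly identical to Gstp2 over 707 bases.

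Beside Cat and Gstm1, the summed level of astrocyte markers did not overlap between the groups, but a score that weights each gene equally did. The summed level of 12 astrocyte genes was 4605 to 5100.2 CPM in Model and 5317 to 5448 CPM in IsoL, without overlap. Of the 12, 10 were above Model, as were 7202 of all 14536 tested genes. Much of that sum is Slc1a2, the glial glutamate transporter, at 1924 and 2197 CPM on average. The mean centred log2 CPM of the list overlapped, at -0.11 to 0.0076 in Model and -0.014 to 0.13 in IsoL, with IsoL 2 below Model 3. None of the 12 passed in edgeR, and none was at 0 in all libraries. The groups did not overlap for 3 of the 12, against 8.48% of all tested genes. Their part in the values of Cat and Gstm1 was not tested. Red cells are rich in catalase and peroxiredoxin 2. Their 6 markers overlapped in summed level between the groups (107 to 124 CPM in Model, 93.8 to 149 in IsoL).

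**Figure D4:**
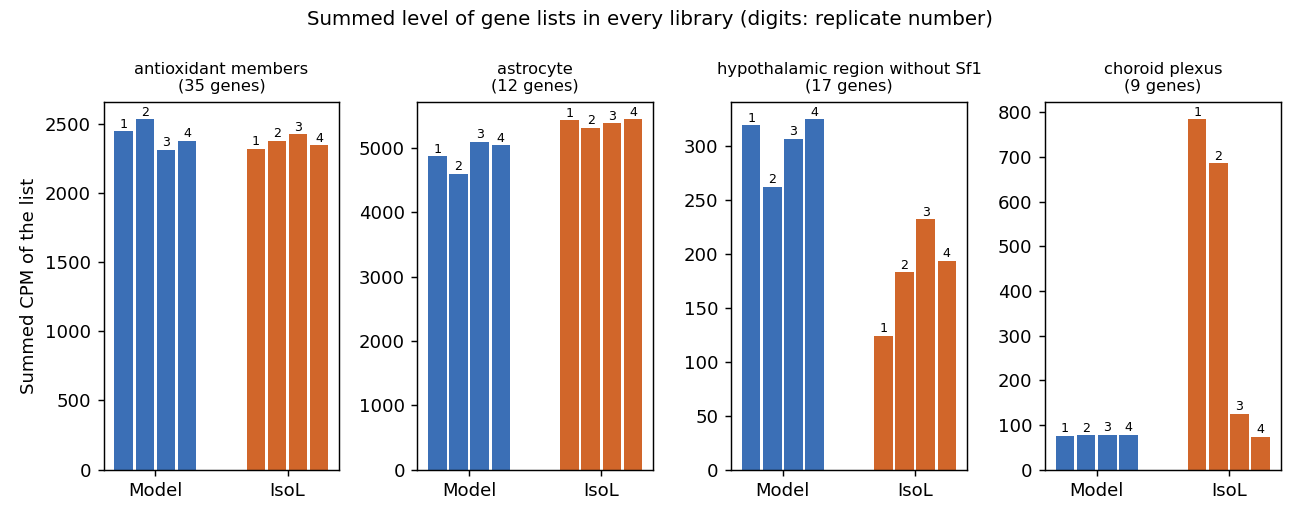
Summed CPM (y axis, from 0, with its own scale in each panel) of the 35 antioxidant genes and of 3 marker lists in each library; digits give the replicate number. The antioxidant sums overlap between the groups, the astrocyte sum, much of it Slc1a2, is higher and the hypothalamic sum lower in all IsoL libraries, and choroid plexus markers are high in IsoL 1 and 2.

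The peroxiredoxins, thiol peroxidases that reduce hydrogen peroxide and are mostly recycled by thioredoxin, had small fitted differences. They were abundant except for Prdx4, at 7.58 FPKM over all 8 libraries. All 7 genes of this role had 95% intervals within 0.32 of 0 on the log2 scale. Prdx5, found in mitochondria and peroxisomes and the most abundant of the role per gene length (56.7 FPKM), was at 128, 131, 111 and 116 CPM in Model and 122, 120.5, 121 and 119.9 CPM in IsoL (log2 fold change -0.011, 95% interval -0.13 to 0.11). The IsoL libraries lay within the Model range. The cytosolic Prdx1 and Prdx2 had log2 fold changes of -0.0042 and -0.019, the mitochondrial Prdx3 of -0.067, the endoplasmic reticulum form Prdx4 of -0.061 and Prdx6, which also handles phospholipid peroxides, of 0.020. Srxn1, sulfiredoxin, reactivates peroxiredoxins that have been over-oxidised. It was at 133, 146, 132 and 126 CPM in Model and 123, 128, 130.2 and 118 CPM in IsoL, with overlapping groups and Model 2 the highest (log2 fold change -0.11, 95% interval -0.22 to 0.012, edgeR adjusted p = 0.438). Without Model 2 its log2 fold change was -0.062.

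Thioredoxins and their reductases also overlapped between the groups with all 4 intervals within the same log2 bound of 0.32. Txn1, the cytosolic thioredoxin, was at 43.4, 45.7, 43.3 and 43.7 CPM in Model and 41, 48.7, 44.2 and 41.5 CPM in IsoL (log2 fold change -0.0060, 95% interval -0.15 to 0.13). IsoL 2 was the highest and IsoL 1 the lowest of all 8. Txn2, the mitochondrial thioredoxin, was at 67, 76.2, 65.8 and 66.4 CPM in Model and 63.7, 62.3, 66.7 and 62.9 CPM in IsoL (log2 fold change -0.11, 95% interval -0.23 to 0.015, edgeR adjusted p = 0.444), again with Model 2 highest. Without Model 2 the log2 fold change of Txn2 was -0.055. The cytosolic reductase Txnrd1 had 96.8 ± 4.49 and 93.4 ± 8.72 CPM, and the mitochondrial reductase Txnrd2, far lower per gene length at 2.49 FPKM against 13.4 FPKM, had 11 ± 1.24 and 11 ± 0.545 CPM.

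The genes that make and recycle glutathione had log2 fold changes from -0.0099 to 0.057 and all 5 intervals within 0.32 of 0. Gclc, the catalytic subunit of the rate-limiting glutamate-cysteine ligase, was at 78.8, 85.6, 77.2 and 76 CPM in Model and 78.7, 82.7, 75.1 and 78.8 CPM in IsoL (log2 fold change -0.0099, 95% interval -0.12 to 0.10). The 2 sets of values covered nearly the same range. Its modifier subunit Gclm was at 114 ± 10.02 and 115 ± 2.04 CPM, and glutathione synthetase, Gss, at 28 ± 2.97 and 29.1 ± 2.84 CPM. Gsr, which reduces oxidised glutathione, was at 25.8 ± 1.30 and 26.1 ± 1.21 CPM. G6pdx, which supplies NADPH through the pentose phosphate pathway, was at 41.2 ± 1.73 and 42.3 ± 1.47 CPM.

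Haem oxygenases break down haem to biliverdin, iron and carbon monoxide, and NQO1 reduces quinones. The constitutive Hmox2 was at 51.3, 38.4, 50.6 and 52.1 CPM in Model and 49.98, 47, 46.7 and 46.8 CPM in IsoL (log2 fold change -0.014, 95% interval -0.20 to 0.17). Model 2 was the lowest of all 8, and without it the log2 fold change was -0.11 (edgeR adjusted p = 0.357, against 0.357 to 0.992 over all left-out libraries). A transcript of Cdip1, which overlaps Hmox2 on the opposite strand, matches 44.3% of the Hmox2 transcript. Cdip1 had 29363 counts in all against 6226 for Hmox2, so the Hmox2 value is uncertain. The inducible Hmox1 and Nqo1, both standard targets of Nrf2, were low, at 4.33 ± 0.545 and 4.75 ± 0.622 CPM and at 5.20 ± 0.751 and 5.33 ± 0.894 CPM. Their groups overlapped, and the intervals were wide (log2 -0.22 to 0.48 for Hmox1 and -0.32 to 0.39 for Nqo1). Without Model 2 the log2 fold change of Hmox1 was 0.055, and without IsoL 3 it was 0.042.

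The transcripts of the regulator pair overlapped between the groups. Nfe2l2 was at 20.6, 22.5, 23 and 18.7 CPM in Model and 21.9, 20.001, 21.2 and 20.7 CPM in IsoL (log2 fold change -0.017, 95% interval -0.19 to 0.16, edgeR adjusted p = 0.950). Keap1 was at 39.1, 40.9, 39 and 37.6 CPM in Model and 35.4, 39.2, 39.3 and 37.8 CPM in IsoL (log2 fold change -0.046, 95% interval -0.18 to 0.084, edgeR adjusted p = 0.781). The IsoL values of Nfe2l2 lay inside the Model range, and those of Keap1 overlapped it. Nrf2 is controlled mainly at the level of its protein, which was not measured here.

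Nrf2 binds a short antioxidant response element whose core is TGACNNNGC. RefSeq promoter windows (250 bases before to 50 after the start site, GRCm38.p6) were at hand for 29 of the 35 members, and 8 of these 29 genes (27.6%) held the core on either strand, against 13.99% of all 27025 genes with a window. Some genes have several windows. Counted by window, 8 of 37 member windows (21.6%) held it, against 12.4% of all windows. The windows around these matches are shown because they let the levels of genes with the core be read one by one. Each is given 5′ to 3′ on the strand that reads TGACNNNGC, with the core in capitals.
Prdx1, chr4:116685456-116685484, - strand: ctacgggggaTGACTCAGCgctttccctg
Txnrd1, chr10:82859104-82859132, - strand: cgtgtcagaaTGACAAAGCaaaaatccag
Srxn1, chr2:152105542-152105570, - strand: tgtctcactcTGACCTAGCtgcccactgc
Gclm, chr3:122245413-122245441, - strand: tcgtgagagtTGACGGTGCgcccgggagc
G6pdx, chrX:74428919-74428947, + strand: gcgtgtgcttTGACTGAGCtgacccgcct
Nfe2l2, chr2:75704885-75704913, - strand: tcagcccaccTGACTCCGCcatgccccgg
Gstm5, chr3:107895802-107895830, + strand: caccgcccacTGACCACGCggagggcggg
Sod1, chr16:90220696-90220724, - strand: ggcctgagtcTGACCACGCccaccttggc
Only the Prdx1 core also holds TGACTCA, the site of AP-1 factors. A match describes the letters of the window and is not a binding site. A window without the core says nothing of the bases outside it.

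None of the 8 genes with a core passed the threshold. Their log2 fold changes ran from -0.11 (Srxn1) to 0.038 (G6pdx) with a median of -0.022, beside -0.012 for the 20 tested members whose window lacks it. Prdx1, whose core is the one shared with AP-1, was at 152 ± 5.36 CPM in Model and 152 ± 5.49 CPM in IsoL, and its 95% interval was -0.10 to 0.10 on the log2 scale. Gpx3, Cat and Gpx4 have a window without the core, as does Gstm1.

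Per gene length the members spanned a wide range of levels. Gpx4, Gstm1 (75.9 FPKM over all 8 libraries), Gpx3 (63.2 FPKM), Gstp1 (59.2 FPKM) and Prdx5 were the highest, in that order. Gpx4 lay above Gstm1 in Model and below it in IsoL (77.7 against 80.3 FPKM). Gstp1 did not differ from its neighbours beyond the spread over libraries, and Gpx3 lay above Prdx5 in Model and below it in IsoL (54.2 against 56.6 FPKM). At the low end were Sod3, Hmox1 and Txnrd2, at 2.59, 2.59 and 2.49 FPKM. Gpx1 is listed at 0.0809 FPKM, an uncertain value that is left out of this order. Nfe2l2 and Keap1 were at 5.55 and 8.21 FPKM.

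**Figure D5:**
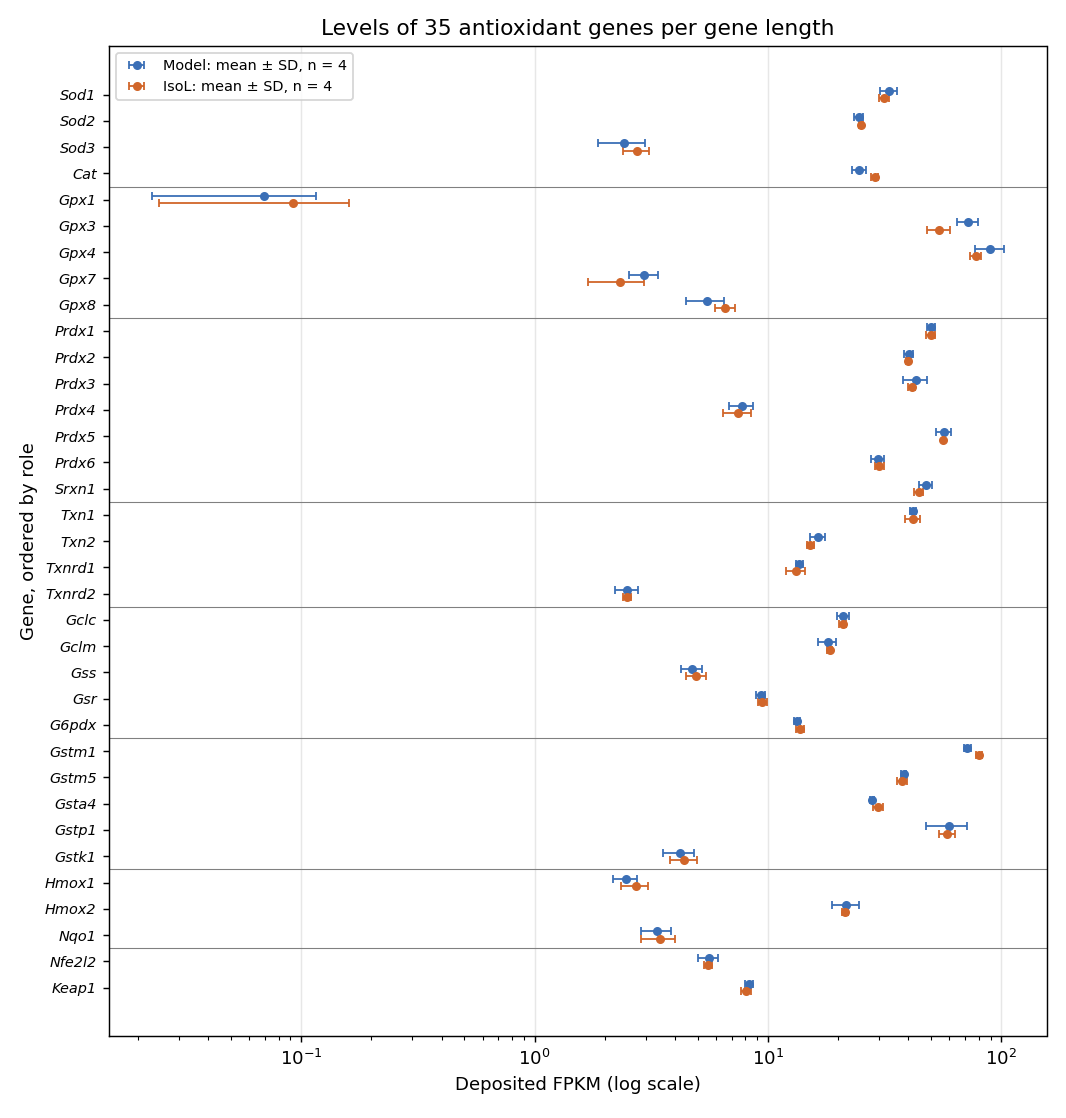
Deposited FPKM (x axis, log scale) of the 35 antioxidant genes (y axis, grouped by role), as mean ± SD of 4 libraries per group. Gpx4, Gstm1, Gpx3, Gstp1 and Prdx5 are the highest, Gpx1, whose count is uncertain, is listed far below the rest, and the groups lie close together at most genes.

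Variation within the groups was larger in Model than in IsoL, as it was for genes in general. The median coefficient of variation of the 34 tested members was 7.995% in Model and 4.54% in IsoL, beside 9.15% and 6.81% over all tested genes. Model 2 was the highest Model library for 15 of the 34 (44.1%) and the lowest for 7 (20.6%), against 33.0% and 32.3% of all tested genes. Without Model 2 no member passed in edgeR either, where 146 of all 14632 tested genes did. Of the 34 members, 5 were then at an unadjusted p under 0.05, against 2099 of those 14632 genes.

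Other genes of the same pathways, a list of 107, also held no gene that passed in edgeR. Of 94 tested, 10 had an unadjusted p under 0.05 (10.6%, against 13.2% of all tested genes), and DESeq2 called 2 (Cbs and Trf) and limma voom 1 (Cbs). The median log2 fold change was -0.0064. Cbs, cystathionine beta-synthase, which feeds homocysteine towards cysteine, had the smallest p. It was at 18.9, 17.6, 17.9 and 16.2 CPM in Model and at 27.7, 25.3, 20.6 and 22.3 CPM in IsoL, every IsoL library above every Model library (log2 fold change 0.44, SE 0.10, 95% interval 0.23 to 0.65, edgeR adjusted p = 0.0838). The adjusted p was 0.0110 in DESeq2, 0.0290 in limma voom and 0.0617 to 0.231 in edgeR with a library left out. Cbs was highest in IsoL 1 and 2, as were the summed choroid plexus and cortex markers. In IsoL 4 both of these sums were below every Model library, while Cbs was above. The part of these tissues in the Cbs values was not tested. Trf, the transferrin gene of iron transport, was at 438 ± 24.3 and 503 ± 22.1 CPM, also without overlap (edgeR adjusted p = 0.118), beside oligodendrocyte markers at a summed 14526 to 15009 CPM in Model and 14759 to 16313 in IsoL, whose part was not tested.

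The other pathway genes with the smallest p were spread over several roles. Selenom, a selenoprotein of the endoplasmic reticulum, was at 64, 75, 57 and 59.96 CPM in Model and at 55.3, 53.7, 55 and 54 CPM in IsoL, all IsoL libraries below Model (edgeR adjusted p = 0.203). Its Model values included a high Model 2, and the log2 fold change was -0.23, or -0.15 without that library. Tkt, transketolase of the pentose phosphate pathway, was at 114 ± 11 and 128 ± 4.09 CPM, and Tfrc, the transferrin receptor, at 152 ± 9.04 and 168 ± 10.5 CPM. Gstm6, a further mu-class transferase, was at 10.4 ± 2.67 and 6.40 ± 2.06 CPM (log2 fold change -0.69, 95% interval -1.25 to -0.12). The groups overlapped for Tkt, Tfrc and Gstm6. Of the superoxide-producing NADPH oxidase genes, 7 of 10 were tested and none passed.

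Some member counts are uncertain for technical reasons that the table itself shows. The labels' protocol states no strand marking, and 9 of the 35 members overlap another gene in the table's coordinates. Among these are Sod1 with Scaf4, Gpx8 with Cdc20b, Prdx2 with Junb and Rnaseh2a, Prdx5 with Trmt112, Txnrd1 with Eid3, Gss with Acss2, G6pdx with Ikbkg and Hmox2 with Cdip1. Transcripts of other genes match 12 members over at least 150 bases at 95% identity or more, and 18 members have neither an overlap nor such a match. Gpx3 and Cat are among these, and so is Gpx1, whose very low count is uncertain all the same.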

How the data were processed

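Polyadenylated RNA was sequenced in 8 libraries, 4 Model and 4 IsoL, grouped by their titles. Per the submitters' processing notes, fastp 0.22.0, HISAT2 2.1.0 and HTSeq 0.9.1 were used, with genome build and annotation not given in the sources used here. Raw read counts per gene are deposited, per the file headers, together with deposited FPKM values, which were checked against counts, the table's gene length (the other deposited unit) and library totals. All tests used the counts; FPKM served only to compare levels between genes.

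Genes were filtered with filterByExpr (14536 kept). TMM factors were 0.983 to 1.01. The test was edgeR 4.0.16 (R 4.3.3), robust quasi-likelihood F-test, Benjamini-Hochberg over all tested genes at 0.05. The SE is the absolute log2 fold change over the square root of F. List scores are means of logCPM (prior count 2) centred per gene. The test code was tried on simulated counts with known changes, the same relative spread for every gene and no outlying library. That check does not show how small a change could be found in these libraries. Near-identical transcripts were sought with blastn 2.17.0 in GENCODE M21. Promoters are RefSeq's. Figures used matplotlib 3.10.9.

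The members, lists and alternatives were chosen with earlier results of these data known. Values in every library are given for the 8 members with the smallest p, those whose groups do not overlap, the most abundant of each role and Nfe2l2 and Keap1; of the other pathway genes, the 6 with the smallest p are named. The list of hypothalamic markers held Sf1, a splicing factor gene, which was left out after its values were seen. Alternatives were DESeq2 size factors, no count filter, DESeq2 1.42.0, limma 3.58.1 voom with quality weights, a replicate block, and each library left out.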

Additional observations from a re-analysis of the deposited data

Results flagged for a closer look

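A sample was picked out where, within a group of 4, its gap to the nearest other library exceeded Dixon's 95% critical share of the group's range; 80 groups were examined, and chance gives about 1 in 20. Of these, 6 met it. Model 2 was the highest Model library for Gpx4 (186 CPM, with the other 3 at 142 to 149) and for Txn2 (76.2 CPM, with the other 3 at 65.8 to 67), and the lowest for Hmox2 (38.4 CPM, with the other 3 at 50.6 to 52.1). This is the library that also stood apart over all genes. Model 1 was the highest for G6pdx (43.8 CPM, with the other 3 at 40.1 to 40.5) and for Gstm5 (51.3 CPM, with the other 3 at 47.9 to 48.3). IsoL 1 was the highest IsoL library for Hmox2 (49.98 CPM, with the other 3 at 46.7 to 47). The gaps of G6pdx, Gstm5 and the IsoL values of Hmox2 were a few CPM, while that of Gpx4 moved its fold change as given with its values.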

How the results depend on the processing

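The count of changed genes over the whole table was 40 and moved to 74 without a count filter, 305 in DESeq2, 238 in limma voom, 17 with the replicate block, and 6 to 146 with a library left out (13, 146, 21 and 6 without Model 1 to 4, and 8, 6, 16 and 9 without IsoL 1 to 4); with DESeq2 size factors it was 38. The count of changed members was 0 in edgeR under each of these settings and in limma voom, and 2 in DESeq2 (Gpx3 and Cat). The other pathway genes moved from 0 to 2 in DESeq2 and to 1 in limma voom. The members' median log2 change kept within the spread of the list score under all 13 alternatives. Of the 34 tested members 16 kept their direction under all 13, Gpx3, Gpx4, Cat and Gstm1 among them. The other 18 had a main log2 fold change within 0.067 of 0 and changed sign at least once. In limma voom these were Prdx1 0.0018, Prdx2 0.0049, Prdx5 0.032, Txn1 0.0047, Txnrd2 -0.054, Gclc 0.022, Gss -0.010, Gstp1 0.015, Gstk1 -0.040, Nqo1 -0.089 and Nfe2l2 0.044 (log2). With a library left out, log2 fold changes that crossed 0 ran over Prdx1 -0.025 to 0.023, Prdx2 -0.040 to 0.00037, Prdx3 -0.12 to 0.0077, Prdx4 -0.14 to 0.0037, Prdx5 -0.046 to 0.027, Prdx6 -0.0027 to 0.058, Txn1 -0.057 to 0.026, Txnrd1 -0.11 to 0.0052, Txnrd2 -0.076 to 0.057, Gclc -0.031 to 0.029, Gclm -0.014 to 0.081, Gss -0.0060 to 0.12, Gsr -0.012 to 0.036, Gstp1 -0.13 to 0.11, Hmox2 -0.11 to 0.030, Nqo1 -0.048 to 0.14 and Nfe2l2 -0.070 to 0.031. For same-numbered Model and IsoL libraries, the correlations of their deviations from the group means were 0.0199 to 0.0696. Between differently numbered libraries they ran from -0.139 to 0.143, and Model 1 correlated best with IsoL 2 (0.143). Such correlations do not settle whether the numbers pair the libraries. With 0 members called in the main test, the replicate block could not remove a call, and it added none. Intervals were wide for Gpx7, Gpx8, Sod3, Hmox1, Nqo1 and Gstk1, which are low in counts, and for Gstp1, which is not. The causes of these moves were not tested.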
